A study of Mus musculus with 12 samples.

Results

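The response of 3 mouse colon myofibroblast lines that lack the microRNAs miR-143 and miR-145 to bacterial lipopolysaccharide (LPS) was taken from 6 of the 12 Illumina bead arrays of the study. The 6 arrays were chosen by genotype and treatment: lines KO4, KO10 and KO15, all null for miR-143 and miR-145, each after 24 h with 1 ug/mL LPS and each without LPS. The other 6 arrays held 3 wild-type lines (WT5, WT7 and WT13), also with and without LPS, and served to steady the estimate of spread and to set the null lines' change beside a wild-type change. The cells were intestinal subepithelial myofibroblasts, the contractile stromal cells under the gut epithelium, and all 4 groups grew in the same high-glucose medium with 10% serum, insulin and transferrin at 10 ug/mL each and EGF at 2 ng/mL. Each group was 3 cultured lines. The labels do not trace them to separate mice, so the p-values given cover variation from line to line, and some of it may be technical. All LPS arrays lay on one slide and all untreated arrays on the other. LPS and slide therefore cannot be told apart in any change from untreated to LPS.

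LPS is a cell wall component of Gram-negative bacteria. It is handed by CD14 to the receptor TLR4 with its partner MD-2 (gene Ly96), and the receptor signals through the adaptors MyD88 and TRIF. The MyD88 arm releases the transcription factor NF-kB and raises cytokine and chemokine genes, while the TRIF arm activates IRF3, which raises type I interferon and, through it, a wide set of interferon-stimulated genes. In the gut, subepithelial myofibroblasts contract, build matrix, supply growth factors to the crypt and recruit leukocytes. miR-143 and miR-145 are made from a single cluster, are abundant in smooth muscle and myofibroblasts, and are known as supports of the contractile state.

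The arrays detected 19248 to 19741 probes each in the null lines. Median raw signals were 117.5 to 119.0 on their untreated arrays and 122.7 to 127.9 on their LPS arrays. The lowest raw signals were 90.1 to 93.6 untreated and 99.6 to 103.0 with LPS, so background also differed between the 2 slides. Values are log2 normalised intensities, and a change is the LPS array minus the untreated array of the same line. SE is limma's moderated standard error of the mean change. Its spread is pooled over null and wild-type lines and drawn towards that of all genes. It is therefore not the scatter of the 3 null lines alone. A gene is called at an adjusted p under 0.05 from limma (line as a block, Benjamini-Hochberg over 11060 genes). Levels of different genes come from different probes and are not compared. Markers of the labelled cell type were present. On all 6 arrays of null lines, 12 of 14 tested smooth muscle genes and 12 of 14 tested fibroblast genes were detected. Each of these lists held 15 genes. Tested genes had already passed the detection filter, so such shares are partly fixed in advance and cannot settle the cell type. Probes for the epithelial marker Epcam, the endothelial marker Pecam1, the glial markers Gfap and S100b and the leukocyte marker Ptprc did not pass the detection filter. Other markers of these cells were present: 10 of 14 tested leukocyte, 5 of 7 epithelial and 3 of 5 endothelial genes were detected on all 6 null arrays. These 3 lists held 21, 16 and 12 genes. Probes for the deleted microRNAs were not analysed here, so the deletion was not checked from the targeted gene.

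In null lines LPS was followed by changes in 1922 of 11060 genes, 17.4%. Of these 949 rose (8.58%) and 973 fell (8.8%), but the rises were larger: 230 genes rose at least 2-fold (2.08%) and 86 fell at least 2-fold (0.778%). An unadjusted p under 0.05 was reached by 3536 genes (32%). The median change over all genes was -0.03, and 4947 genes had a positive change (44.7%). The LPS and untreated groups did not overlap for 4108 genes (37.1%), 1769 with LPS above (16%) and 2339 with LPS below (21.1%). With 3 lines, an exact sign-flip test of a single gene could not go below p = 0.25, so calls rest on the spread shared across genes. Leaving out a null line, which also leaves fewer samples, lowered the count: 1076 genes were called without KO4, 807 without KO10 and 994 without KO15.

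The 12 genes with the largest rises were Lcn2, Saa3, Il1b, Cxcl2, Cxcl1, Ccl2, Ccl5, Ccl3, Mmp3, Mmp13, Il1a and Csf2. They encode acute phase proteins, cytokines, chemokines and matrix proteases. Lcn2 encodes lipocalin 2, which withholds iron from bacteria by binding their siderophores. It stood at 10.95, 12.81 and 11.57 in KO4, KO10 and KO15 with LPS, against 4.35, 6.40 and 7.10 in the same lines untreated. The groups lay far apart, and the untreated level of KO4 was not detected above background. The mean change was 5.82 (SE 0.38, adjusted p = 3.85e-05), 56.7-fold. It was 4.43 without background correction and 6.51 without KO15. Saa3, a serum amyloid A gene, reached 13.32, 14.61 and 13.86 in KO4, KO10 and KO15 with LPS, against 6.88, 9.48 and 9.38 untreated. Its change was 5.35 (SE 0.42, adjusted p = 8.11e-05), and KO4 again had the lowest untreated level.

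**Figure D1:**
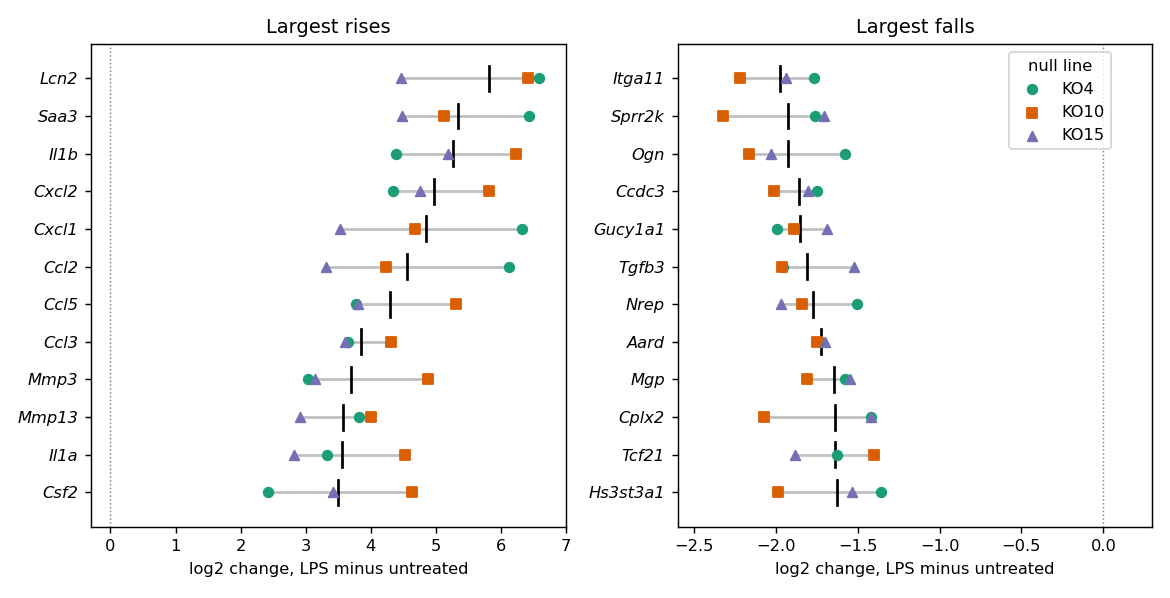
Log2 change (LPS minus untreated, x axis) of the 12 genes with the largest rises (left) and the 12 with the largest falls (right) in null lines, among called genes whose groups did not overlap. Symbols are the 3 lines and black ticks their mean. All 3 lines moved the same way for all 24 genes, and the spread between lines was widest for Cxcl1, Ccl2 and Csf2. Il1b, Cxcl2 and Csf2 were not detected in untreated null lines, so their plotted changes start from background.

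Among called genes whose groups did not overlap, the 12 largest falls were those of Itga11, Sprr2k, Ogn, Ccdc3, Gucy1a1, Tgfb3, Nrep, Aard, Mgp, Cplx2, Tcf21 and Hs3st3a1. As background, Itga11 is a collagen receptor subunit, Ogn and Mgp are matrix proteins, Gucy1a1 is a subunit of the nitric oxide receptor, and Tgfb3 is a TGF-beta ligand. Itga11 stood at 9.64, 8.45 and 8.55 in KO4, KO10 and KO15 with LPS, against 11.41, 10.67 and 10.49 untreated. The groups did not overlap, and the change was -1.97 (SE 0.12, adjusted p = 3.34e-05). The other 11 changed by -1.93 to -1.63. All 12 falls were smaller in size than the 12 rises. For Aard, 2 of the 3 LPS arrays detected the probe.

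Genes of LPS sensing were taken first. Of 21 tested genes of LPS sensing, 5 rose (23.8%) and 1 fell (4.76%), with a median change of 0.14 against -0.03 for all genes. Counts of this list and of every later list are to be read against 8.58% higher and 8.8% lower over all genes. Tlr4, the LPS receptor gene, stood at 7.75, 8.29 and 8.05 in KO4, KO10 and KO15 with LPS, against 7.36, 7.78 and 7.58 untreated. KO10 untreated lay just above KO4 with LPS, so the groups overlapped, although each line rose. The change was 0.45 (SE 0.10, adjusted p = 0.0148), and the call was lost in 6 of 17 alternatives, among them leaving out any 1 null line. Cd14, the LPS co-receptor, stood at 7.77, 9.62 and 8.77 in KO4, KO10 and KO15 with LPS, against 6.70, 7.94 and 7.23 untreated, a change of 1.43 (SE 0.13, adjusted p = 0.000171). Cd14 is also a leukocyte gene, and KO10 was highest and KO4 lowest in both states. Ly96 (0.29, SE 0.11, adjusted p = 0.101) and Myd88 (0.25, SE 0.12, adjusted p = 0.193) did not pass.

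Other called genes of this group were Ikbke, a kinase of the TRIF and NF-kB arms (1.47, SE 0.19, adjusted p = 0.000942), Tlr2, the receptor for bacterial lipoproteins (1.39, SE 0.16, adjusted p = 0.000675), and Irak3, a brake on MyD88 signalling (0.99, SE 0.14, adjusted p = 0.0015). Tlr2 was even across untreated lines, at 6.70, 6.65 and 6.62, and spread to 7.57, 8.49 and 8.09 in KO4, KO10 and KO15 with LPS. Irf3, the transcription factor of the TRIF arm, was the gene that fell, by 0.38 on the log2 scale (adjusted p = 0.0374).

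NF-kB genes and their feedback inhibitors were mostly higher: 10 of 17 tested were higher, 58.8% against a background of 8.58%, and 0 were lower. Their median change was 0.91. Nfkbia encodes IkBa, which holds NF-kB in the cytoplasm and is itself an NF-kB target. It stood at 10.25, 10.41 and 10.15 in KO4, KO10 and KO15 with LPS, against 8.17, 8.41 and 8.90 untreated, a change of 1.78 (SE 0.15, adjusted p = 0.000137). The LPS levels lay closer together than the untreated ones. Bcl3, a nuclear IkB protein, showed this more strongly, with 8.11, 8.19 and 8.15 after LPS against 5.40, 6.54 and 6.46 untreated. Zc3h12a, an RNase that destroys cytokine mRNAs, rose by 1.68 and Map3k8, a kinase of the ERK branch, by 1.43. Tnfaip3 (A20, a ubiquitin editor that limits NF-kB) rose by 1.37. The subunit gene Rela did not pass (0.16, adjusted p = 0.3), while Relb (0.91) and Nfkb2 (0.92) rose.

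Of 9 tested CXC chemokine genes 7 rose, 0 fell, and the median change was 1.49, or 0.99 with genes that no untreated array detected put at their lower bound. Cxcl1 and Cxcl2 are neutrophil attractants. Cxcl1 stood at 13.12, 13.86 and 13.11 in KO4, KO10 and KO15 with LPS, against 6.79, 9.17 and 9.59 untreated. The LPS levels were nearly level, so the line with the lowest untreated level, KO4, had the largest change (6.33), and KO15 the smallest (3.52). The mean change was 4.85 (SE 0.48, adjusted p = 0.000257). Where no array of a group detected a gene, only a bound is given, taken against the lowest level that each array of that group detected. Such a bound holds on the background-corrected scale only, and other processing gave smaller changes for several genes. Cxcl2 was not detected in any untreated null line and reached 8.66, 10.55 and 9.55 with LPS. It was at least 25.9-fold higher (adjusted p = 1.94e-05), with means of 9.59 ± 0.95 (SD, n = 3) in LPS and 4.61 ± 0.26 (SD, n = 3) in untreated lines.

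The interferon-induced T cell attractant Cxcl10 rose by 3.40 (SE 0.32, adjusted p = 0.000205), with KO10 at 11.59, well above KO4 (8.86) and KO15 (9.36) with LPS. Untreated levels of Cxcl10 were 6.17, 6.92 and 6.52 in KO4, KO10 and KO15. Cxcl16 rose by 2.71 (SE 0.13, adjusted p = 1.94e-05). Cxcl12, the homeostatic stromal chemokine, did not pass (0.08, SE 0.09, adjusted p = 0.635).

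CC and CX3C chemokine genes followed, with 11 of 15 tested higher, 0 lower and a median of 1.60. Ccl2, the main monocyte attractant, stood at 12.73, 12.94 and 12.49 in KO4, KO10 and KO15 with LPS, against 6.61, 8.70 and 9.17 untreated, a change of 4.56 (SE 0.45, adjusted p = 0.000257). As with Cxcl1, KO4 was lowest without LPS and level with the others after it. Ccl5, an attractant of T cells and monocytes, behaved otherwise, since untreated levels were close (4.93, 5.43 and 5.43) and LPS levels spread to 8.70, 10.74 and 9.24. Its change was 4.30 (SE 0.28, adjusted p = 3.75e-05). Ccl3 rose by 3.86 (SE 0.15, adjusted p = 1.09e-05) and Ccl7 by 2.90 (SE 0.33, adjusted p = 0.000606). Cx3cl1 (1.84) and the eosinophil attractant Ccl11 (1.73) rose as well. 

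**Figure D2:**
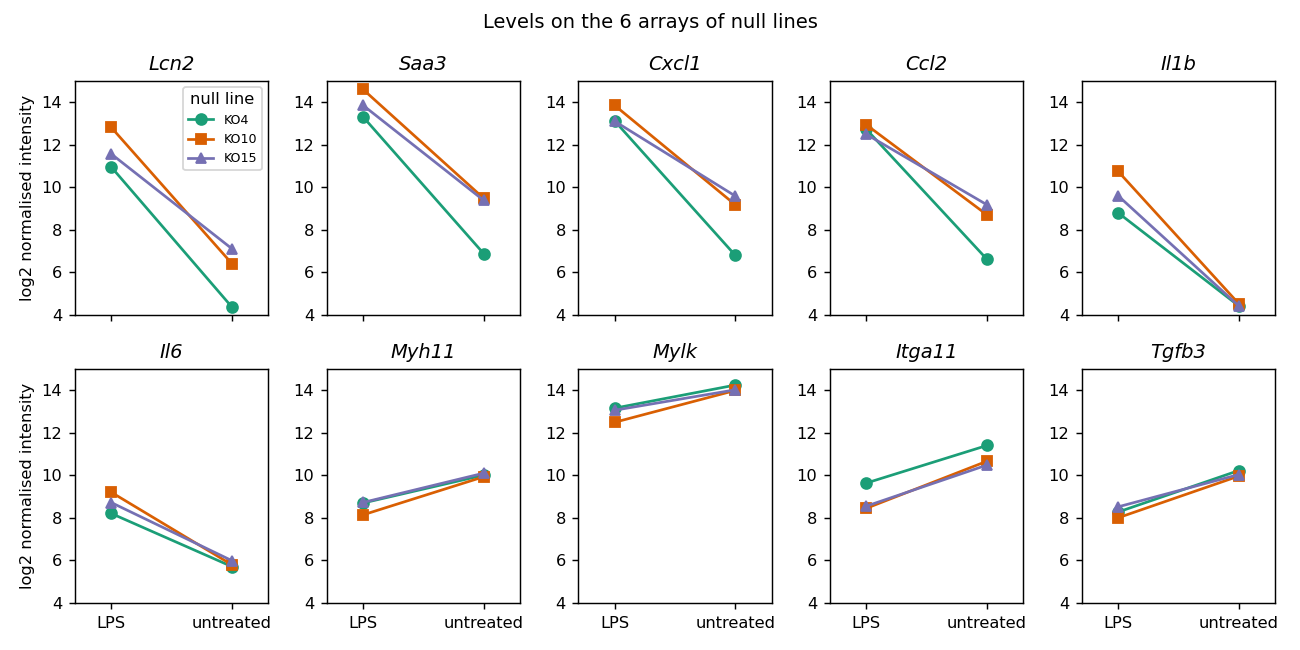
Log2 normalised intensity of 10 genes on the 6 arrays of null lines, LPS on the left and untreated on the right of each panel, with the 2 arrays of a line joined. KO4 had the lowest untreated level of Lcn2, Saa3, Cxcl1 and Ccl2, while Il1b was near 4.4 to 4.5 in every untreated line. Myh11, Mylk, Itga11 and Tgfb3 were lower with LPS in each line.

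Cytokine genes split: 11 of 23 tested rose (47.8%), 3 fell (13%), and the median change was 0.28. Il1b was not detected in untreated lines (4.42, 4.52 and 4.42) and stood at 8.80, 10.76 and 9.61 in KO4, KO10 and KO15 with LPS, at least 28.5-fold higher (adjusted p = 3.34e-05). Il1a rose by 3.56 (SE 0.38, adjusted p = 0.000411). Csf2, the gene of GM-CSF, went undetected in untreated lines as well and was at least 8.32-fold higher, at 6.75, 9.05 and 8.04 with LPS. For all 3 genes KO10 was highest and KO4 lowest after LPS. These sizes depended on the background step: without background correction the change was 3.06 for Il1b, 2.89 for Cxcl2 and 1.66 for Csf2, below the bounds given, and the calls held.

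Il6 stood at 8.21, 9.21 and 8.72 in KO4, KO10 and KO15 with LPS, against 5.71, 5.79 and 5.99 untreated, a change of 2.88 (SE 0.25, adjusted p = 0.000133). Lif (1.98) and Il11 (1.92), 2 other cytokines of the gp130 receptor family, rose, whereas Ctf1 of the same family fell by 0.67 on the log2 scale. Kitl, the gene of stem cell factor, fell, at 6.23, 5.71 and 5.37 in KO4, KO10 and KO15 with LPS against 7.50, 6.81 and 6.32 untreated (change -1.10, SE 0.14, adjusted p = 0.000942). Each line fell by about 1 log2 unit although the lines' own levels differed. Tnf was not detected without LPS and was at least 1.59-fold higher with it (adjusted p = 0.00983).

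Promoter sequences were searched for letters that match NF-kB, interferon and serum response elements, since genes of these groups moved together. Sequences are from RefSeq promoters on GRCm38.p6 (250 bases before to 50 after each start), and 8941 of the 11060 genes tested had an entry, among them 18 of the 24 largest risers and fallers. The kappaB motif was searched under that name as a 10-base pattern, the interferon-stimulated response element (ISRE) as GAAA, any 2 bases and GAAA, and the CArG box under that name, each on both strands. A match describes letters only. A kappaB match lay in 12.2% of genes tested, in 18.2% of the 170 genes called at least 2-fold higher and in 12.3% of genes called lower. The ISRE lay in 3.62%, 17.1% and 2.74% of these, and the CArG box in 1.78%, 0.588% and 3.39%. Among all 740 called risers with an entry, the shares were 14.3% for kappaB, 8.78% for ISRE and 2.43% for CArG. In these shares a gene counts if any of its promoters holds a match. Counted promoter by promoter over all 32851 of the table, the shares were 8.46% for kappaB, 3.44% for ISRE and 1.63% for CArG. The 2 ways of counting are not comparable, since a gene can have several promoters.

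Of the 4 top risers with an entry, Cxcl2 held a kappaB match 97 bases upstream of its start, overlapped by a second on the other strand 96 bases upstream, and Saa3 held an ISRE match 125 bases upstream. No match was found in the windows of Lcn2 and Il1b, nor in those of the fallers Itga11 and Sprr2k. The 250 bases upstream of Cxcl2 and of Saa3 are shown, because these are the 2 of the first 4 risers with an entry that hold a match, with matches in capitals (Cxcl2 at chr5:90903649-90903898, plus strand, Saa3 at chr7:46715677-46715926, minus strand).
Cxcl2: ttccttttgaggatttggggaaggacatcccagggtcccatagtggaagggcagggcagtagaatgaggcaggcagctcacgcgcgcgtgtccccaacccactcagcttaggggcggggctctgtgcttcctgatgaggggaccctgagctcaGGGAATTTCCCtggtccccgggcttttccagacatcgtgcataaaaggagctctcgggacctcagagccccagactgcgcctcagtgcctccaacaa
Saa3: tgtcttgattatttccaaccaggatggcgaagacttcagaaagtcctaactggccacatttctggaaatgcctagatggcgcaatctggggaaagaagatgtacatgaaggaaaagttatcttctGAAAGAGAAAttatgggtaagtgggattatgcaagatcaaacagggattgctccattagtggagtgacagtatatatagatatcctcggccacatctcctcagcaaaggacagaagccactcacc

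In the chemokine and NF-kB lists, kappaB matches were found in 4 of 8 CXC genes with an entry, 3 of 10 CC genes and 7 of 14 NF-kB genes. Of those with a match, 4 of 4, 2 of 3 and 6 of 7 were called, and Cyld, an NF-kB inhibitor with a match, did not pass (0.05, adjusted p = 0.776). Windows of 30 bases with the match in capitals are shown for 6 of them to let the core be compared. These were chosen after the matches were seen. Cxcl1 lies at chr5:90891164-90891193 (plus), Cxcl3 at chr5:90786018-90786047 (plus), Cxcl10 at chr5:92349029-92349058 (minus), Nfkb2 at chr19:46304688-46304717 (plus), Nfkbia at chr12:55492657-55492686 (minus) and Nfkbie at chr17:45555584-45555613 (plus).
Cxcl1: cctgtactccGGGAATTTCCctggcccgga
Cxcl3: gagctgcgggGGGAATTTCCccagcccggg
Cxcl10: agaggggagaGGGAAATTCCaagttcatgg
Nfkb2: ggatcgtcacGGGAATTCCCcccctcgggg
Nfkbia: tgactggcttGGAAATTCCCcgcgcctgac
Nfkbie: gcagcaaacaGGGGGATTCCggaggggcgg
Cxcl1, Cxcl2 and Cxcl3 shared the same 10 letters. All 6 genes shown rose with LPS, those detected in untreated lines by 0.74 (Nfkbie) to 4.85 (Cxcl1). All 6 were called genes and Cyld was left out, so their shared rise is no test of the motif. Cxcl3 was detected on 2 of 3 LPS arrays and on 0 untreated arrays, so that its rise is at least 1.22-fold.

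Acute phase and complement genes held 10 risers and 2 fallers among 18 tested, with a median of 0.48, or 0.44 with genes undetected in a group at their bound. Beside Lcn2 and Saa3, the pentraxin Ptx3, which tags microbes for uptake, stood at 7.32, 8.83 and 8.51 in KO4, KO10 and KO15 with LPS, against 4.44, 4.84 and 5.0 untreated. The probe was detected on 1 untreated array, and the change was 3.46 (SE 0.20, adjusted p = 3.34e-05). The copper carrier gene Cp rose by 3.30 (SE 0.26, adjusted p = 7.85e-05). The complement factor gene Cfb was at least 1.18-fold higher, and Masp1, a protease of the lectin pathway, fell by 1.15 on the log2 scale (adjusted p = 0.00011).

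Interferon-stimulated antiviral genes rose in the largest number: 35 of 42 tested were higher (83.3%), 0 were lower, and all 42 changes were positive, with a median of 1.16. The median level over these genes was 8.22, 8.96 and 8.19 in KO4, KO10 and KO15 with LPS, against 6.92, 7.27 and 6.22 untreated. KO15 was lowest without LPS. Isg15, a ubiquitin-like modifier, stood at 12.19, 12.92 and 12.19 in KO4, KO10 and KO15 with LPS, against 9.85, 10.01 and 8.62 untreated, a change of 2.94 (SE 0.22, adjusted p = 7.08e-05). Trim30a, which restrains TLR signalling in mouse, rose by 3.15 (SE 0.17, adjusted p = 2.53e-05). Oasl2 rose by 3.13 (0.64 to 3.13 over its 3 probes) and Oas1g, a sensor of double-stranded RNA, by 2.73.

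Bst2, which tethers budding virus, was the interferon gene that varied most between lines: its change was 1.10 in KO4, 2.58 in KO10 and 3.60 in KO15. Its levels with LPS were 10.03, 11.45 and 10.79, against 8.94, 8.87 and 7.19 untreated, so the low untreated level of KO15 went with the largest change there. Usp18, the protease that removes Isg15, rose by 2.62 and the transcription factor Irf7 by 2.43. Rsad2 (0.94, adjusted p = 0.097), Ifit2 (0.25, adjusted p = 0.33) and Irf1 (0.17, adjusted p = 0.27) did not pass.

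Interferon-inducible GTPases, which attack the vacuoles of intracellular pathogens, gave 9 risers and 0 fallers among 11 tested, with a median of 1.49. Gbp3 stood at 10.11, 11.18 and 10.46 in KO4, KO10 and KO15 with LPS, against 7.47, 8.14 and 6.89 untreated, a change of 3.08 (SE 0.21, adjusted p = 4.8e-05). Gbp2 rose by 2.10 (0.65 to 2.10 over its 3 probes), Igtp by 1.70 and Gbp7 by 1.53. Every line moved up for all 4 genes. Among genes of signalling from interferon and cytokine receptors, Stat2 rose by 1.57 (SE 0.18, adjusted p = 0.000548) and the feedback inhibitor Socs3 by 1.24 (SE 0.11, adjusted p = 0.000171). Of 15 tested JAK-STAT and SOCS genes 4 rose (26.7%) and 1 fell (6.67%). The last was Socs2, a brake on growth hormone signalling (-0.93, SE 0.13, adjusted p = 0.0018).

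ISRE matches lay in the promoters of 20 of 38 tested genes of the 2 interferon lists (52.6%), 13 of 30 in the antiviral list and 7 of 8 among the GTPases. The 250 bases upstream of Isg15 (chr4:156200819-156201068, minus strand) are shown because 3 overlapping matches follow each other there, 78, 72 and 66 bases upstream of the start. Windows of 30 bases are given for Bst2 (chr8:71537583-71537612, minus), Gbp3 (chr3:142559989-142560018, plus), Gbp2 (chr3:142620594-142620623, plus) and Igtp (chr11:58199512-58199541, plus). They were chosen after the matches were seen, and capitals mark a match on either strand.
Isg15: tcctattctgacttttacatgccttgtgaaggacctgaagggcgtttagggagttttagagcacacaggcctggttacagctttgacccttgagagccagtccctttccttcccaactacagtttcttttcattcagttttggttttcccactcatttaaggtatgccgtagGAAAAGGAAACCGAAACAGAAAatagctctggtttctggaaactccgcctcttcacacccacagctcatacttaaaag
Bst2: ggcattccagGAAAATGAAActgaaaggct
Gbp3: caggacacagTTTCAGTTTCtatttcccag
Gbp2: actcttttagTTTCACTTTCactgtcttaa
Igtp: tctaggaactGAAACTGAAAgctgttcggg
The matches of Gbp3 and Gbp2 read on the other strand, as TTTC repeats. These 5 genes, which rose by 1.70 to 3.08, were taken from the named list members, which are called genes of largest change. Their shared rise follows from that choice and is no test of the motif. Of all genes with a match, 11 of 13 in the antiviral list and 7 of 7 GTPases were called, against 83.3% and 81.8% of the whole lists.

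Antigen presentation by MHC class I rose with the interferon genes, 12 of 18 tested being higher and 0 lower (median 0.60). H2-K1 stood at 8.68, 10.22 and 9.14 in KO4, KO10 and KO15 with LPS, against 6.79, 7.16 and 7.08 untreated, a change of 2.33 (SE 0.19, adjusted p = 0.000105). The 3 H2-K1 probes changed by 1.11 to 2.33. The immunoproteasome subunit Psmb8 rose by 1.52 (SE 0.11, adjusted p = 6.73e-05), H2-T23 by 1.61 and H2-D1 by 1.42. H2-Q8 was among the genes whose change varied most between lines, at 0.81 in KO4, 3.02 in KO10 and 1.61 in KO15. Class I genes resemble each other in sequence, as do the Gbp, Oas and Sprr2 families, and whether their probes also bind relatives was not tested.

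Enzymes of local mediators moved in part. Among 12 tested prostaglandin genes 4 rose (33.3%) and 1 fell (8.33%). Ptges, the synthase that makes prostaglandin E2, stood at 9.69, 10.64 and 10.09 in KO4, KO10 and KO15 with LPS, against 7.80, 8.12 and 8.12 untreated (change 2.12, SE 0.16, adjusted p = 6.96e-05). Ptgs2, the inducible cyclooxygenase, rose by 1.17 (SE 0.33, adjusted p = 0.0388), a call lost in 5 of 17 alternatives including leaving out any 1 null line (adjusted p 0.122 to 0.153). Tbxa2r, the thromboxane receptor of smooth muscle, was at least 1.61-fold lower, since no LPS array of null lines detected it.

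Genes of nitric oxide, arginine and itaconate gave 6 risers and 0 fallers among 16 tested. Acod1, which makes the antimicrobial metabolite itaconate in macrophages, was not detected without LPS and was at least 4.7-fold higher with it, at 6.10, 8.24 and 7.03 in KO4, KO10 and KO15. Gch1, which makes the nitric oxide synthase cofactor tetrahydrobiopterin, rose by 2.14 (SE 0.11, adjusted p = 1.94e-05), with close agreement between lines (2.12, 2.37 and 1.94). The 2 Gch1 probes changed by 1.10 to 2.14. Arg1 rose by 1.29 (adjusted p = 0.0154), with line changes of 0.38, 2.28 and 1.21 and a call lost in 5 of 17 alternatives. The inducible synthase Nos2 was at least 1.5-fold higher.

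Of 25 tested oxidative defence genes 11 rose and 3 fell (median 0.39). Hmox1, the heme-degrading enzyme, stood at 11.55, 12.15 and 12.26 in KO4, KO10 and KO15 with LPS, against 10.20, 10.65 and 11.13 untreated (change 1.33, SE 0.11, adjusted p = 0.000133). The mitochondrial superoxide dismutase Sod2, an NF-kB target, rose by 1.21 and the cystine transporter Slc7a11 by 1.00 (0.31 to 1.00 over its 2 probes). The fallers were the glutathione peroxidases Gpx1, Gpx3 and Gpx4, by 0.33 to 0.45 in size. Hypoxia and glycolysis genes had 11 risers and 0 fallers among 24 tested, led by the oxygen sensor Egln3 (1.22, SE 0.10, adjusted p = 8.25e-05) and Adm (1.00). The glycolytic enzymes Ldha (0.20, adjusted p = 0.18), Pkm (0.16, adjusted p = 0.29) and Gapdh (0.14, adjusted p = 0.32) did not pass.

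**Figure D3:**
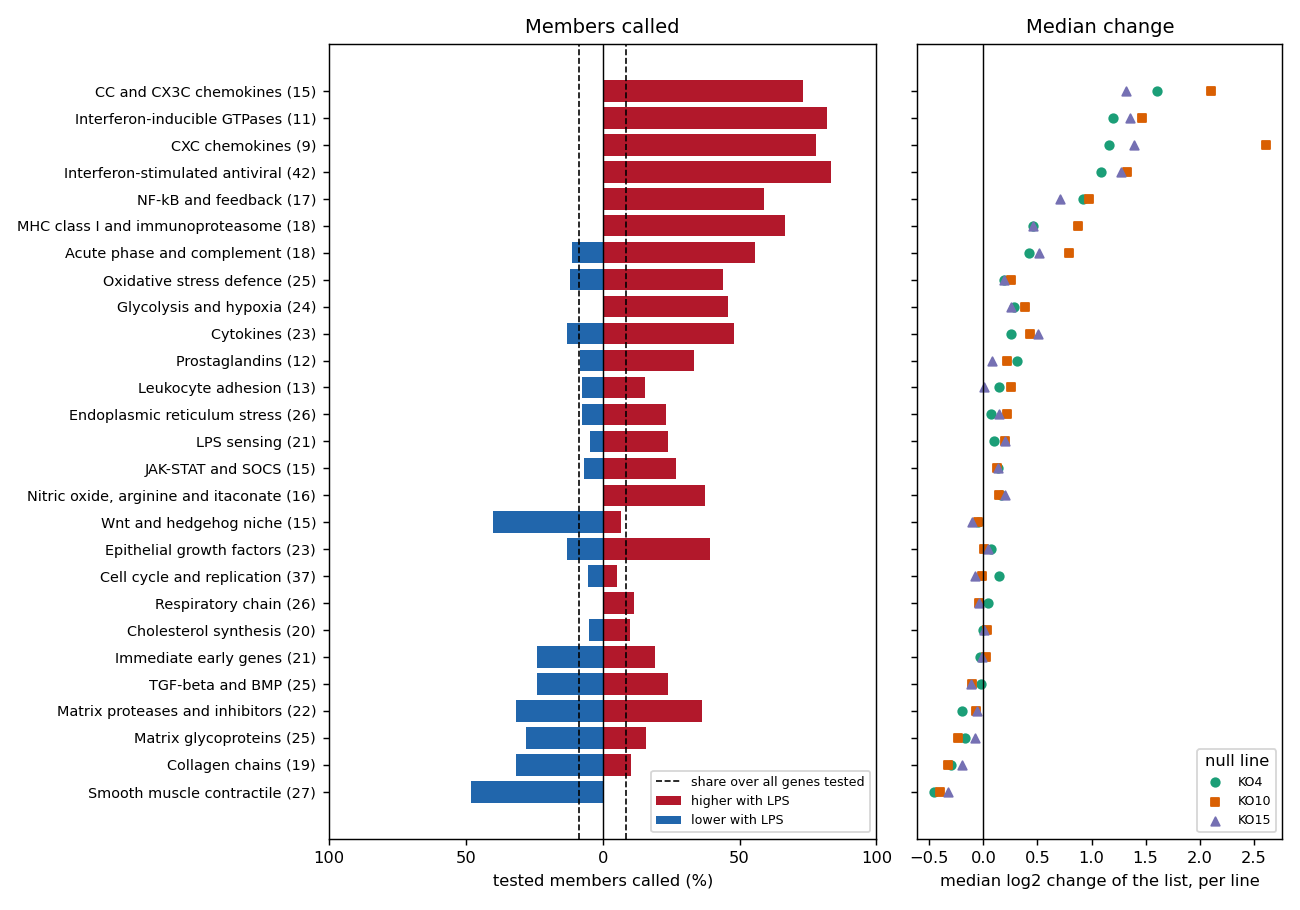
Left, share of the tested members of each of 27 gene lists that were called higher (red, to the right) or lower (blue, to the left) with LPS in null lines, with the number tested in brackets and dashed lines at the shares over all genes (8.58% higher, 8.8% lower). Right, median log2 change of each list in KO4, KO10 and KO15. Chemokine and interferon lists lie at the top and contractile genes, with 0 higher and 13 lower, at the bottom.

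Matrix genes changed in both directions. Of 22 tested proteases and inhibitors 8 rose (36.4%) and 7 fell (31.8%). Mmp3, stromelysin, stood at 9.59, 11.26 and 10.41 in KO4, KO10 and KO15 with LPS, against 6.55, 6.37 and 7.27 untreated (change 3.69, SE 0.34, adjusted p = 0.000191). Mmp13, a collagenase, reached 11.32, 13.09 and 12.69 with LPS, against 7.51, 9.09 and 9.78 untreated (change 3.58, SE 0.19, adjusted p = 1.94e-05). The 3 Mmp13 probes changed by 0.37 to 3.58, and the brightest is given. The gelatinase Mmp9 rose by 3.18 and Mmp10 by 2.41. All 4 of these genes were higher with LPS in each line and their groups did not overlap. The fallers included the protease inhibitor Timp3, at 11.70, 11.18 and 11.46 with LPS against 12.42, 12.19 and 12.24 untreated (change -0.84, SE 0.13, adjusted p = 0.00316), and the membrane collagenase Mmp14 (-0.39).

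Of 19 tested collagen chain genes 2 rose (10.5%) and 6 fell (31.6%), with a median of -0.26 against -0.03 for all genes. The changes were small. Col24a1, a minor fibrillar chain, fell by 0.79 on the log2 scale (adjusted p = 0.000822) and Col7a1, the anchoring fibril chain, by 0.63. The major chains Col1a1 (-0.25, adjusted p = 0.42), Col1a2 (-0.17, adjusted p = 0.44) and Col3a1 (-0.56, adjusted p = 0.062) did not pass. Col18a1, whose fragment is endostatin, rose by 0.56 (adjusted p = 0.0095), a call lost in 5 of 17 alternatives.

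Among 25 tested matrix glycoproteins 4 rose (16%) and 7 fell (28%). Ogn, osteoglycin, stood at 9.17, 8.54 and 8.22 in KO4, KO10 and KO15 with LPS, against 10.75, 10.71 and 10.25 untreated (change -1.93, SE 0.13, adjusted p = 3.85e-05). The 3 Ogn probes changed by -1.93 to -0.26, and the brightest is given. Tgfbi, a matrix protein induced by TGF-beta, fell by 1.40 on the log2 scale (SE 0.16, adjusted p = 0.000511). The 2 groups did not overlap for either gene. Decorin (Dcn) rose by 0.58 (adjusted p = 0.0137) with overlapping groups and a call lost in 6 of 17 alternatives. Of 13 adhesion genes, Cd47 (0.92) and Icam1 (0.86) rose and Mcam fell (-1.60, SE 0.12, adjusted p = 7.08e-05), while Vcam1 did not pass (0.27, adjusted p = 0.104). These calls were 15.4% higher and 7.69% lower, against 8.58% and 8.8% over all genes.

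Contractile smooth muscle genes fell: 13 of 27 tested were lower, 48.1% against a background of 8.8%, and 0 were higher, with a median of -0.40. Myh11, smooth muscle myosin, stood at 8.70, 8.14 and 8.73 in KO4, KO10 and KO15 with LPS, against 10.01, 9.94 and 10.11 untreated. The untreated lines lay within 0.2 log2 units of each other and all LPS levels were below them. The change was -1.50 (SE 0.12, adjusted p = 9.63e-05), 2.82-fold. Mylk, the kinase that switches on myosin, stood at 13.16, 12.50 and 13.07 with LPS, against 14.25, 14.00 and 14.03 untreated (change -1.18, SE 0.16, adjusted p = 0.00128). Lmod1, which nucleates actin filaments, fell by 1.32 on the log2 scale and Tagln by 0.83. KO10 had the lowest level with LPS and the largest fall of these 4 genes. Myl9, the regulatory light chain, fell by 0.79 (SE 0.09, adjusted p = 0.000431). In bulk RNA, fewer contractile cells and less of these transcripts per cell cannot be told apart.

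Of the transcription factors of this program, Srf fell by 0.33 on the log2 scale (adjusted p = 0.0362) and its cofactor gene Mrtfa by 0.72 (adjusted p = 0.00326). Myocd, the smooth muscle cofactor, did not pass (adjusted p = 0.2) and no LPS array of null lines detected it. Acta2, smooth muscle actin, could not be judged from its brightest probe, which ranked between place 2 and place 4 from the top on each of the null arrays, where quantile normalisation sets levels equal. That probe read 15.28, 15.23 and 15.23 with LPS, against 15.25, 15.25 and 15.23 untreated. Its mean raw signal was 36426 with LPS and 41258 untreated, and scaling to the 75th percentile gave a change of -0.23. The 3 other bright Acta2 probes changed by -0.57 to -0.50, and the mean over the gene's probes by -0.36 (adjusted p = 0.0365). Vim, the mesenchymal filament gene, fell by 0.59 on the log2 scale (SE 0.10, adjusted p = 0.00377), at 13.44, 13.26 and 13.12 with LPS against 14.02, 13.77 and 13.80 untreated.

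CArG box matches, the letters bound by Srf, lay in 4 of 23 contractile genes with an entry (17.4%), namely Cnn2, Myl9, Vcl and Srf. kappaB matches lay in 6 of the 23 (26.1%). The 250 bases upstream of Myl9 (chr2:156775214-156775463, plus strand) are shown as the largest faller of the 4, with a kappaB match 195 bases and a CArG match 161 bases upstream in capitals. Windows of 30 bases are given for Srf (chr17:46556225-46556254, minus), Vcl (chr14:20929161-20929190, plus) and Cnn2 (chr10:79988534-79988563, plus), all chosen after the matches were seen.
Myl9: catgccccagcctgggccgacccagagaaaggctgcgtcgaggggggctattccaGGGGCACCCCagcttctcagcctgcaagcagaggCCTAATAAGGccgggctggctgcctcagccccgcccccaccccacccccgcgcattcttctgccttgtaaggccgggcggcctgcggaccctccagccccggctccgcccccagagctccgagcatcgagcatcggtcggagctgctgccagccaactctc
Srf: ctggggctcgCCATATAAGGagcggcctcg
Vcl: cccactatgcCCTTATAAGGagcgccccgc
Cnn2: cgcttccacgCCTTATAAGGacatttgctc
Of the 4 genes, Myl9 and Srf fell, while Vcl (-0.41, adjusted p = 0.056) and Cnn2 (-0.15, adjusted p = 0.34) did not pass.

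Signals to the crypt changed in both directions. Among 23 tested epithelial growth factor and IGF genes 9 rose (39.1%) and 3 fell (13%). Fgf7, keratinocyte growth factor, stood at 11.91, 12.38 and 12.40 in KO4, KO10 and KO15 with LPS, against 9.90, 11.03 and 11.37 untreated (change 1.46, SE 0.19, adjusted p = 0.00109). KO4 had the lowest untreated level and the largest change (2.01). Vegfc rose by 1.24, while Ptn, pleiotrophin, fell by 1.77 on the log2 scale (SE 0.17, adjusted p = 0.000205) and Igfbp6 by 1.04. Igfbp5, a reported target of miR-143 and miR-145, stood at 8.78, 10.58 and 10.43 in KO4, KO10 and KO15 with LPS, against 7.96, 9.96 and 9.97 untreated. KO4 was low in both states, so the groups overlapped, but each line rose (0.83, 0.62 and 0.45). The paired change of Igfbp5 was 0.63 (SE 0.11, adjusted p = 0.00467), and without the replicate block the adjusted p was 0.46.

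Of 15 tested Wnt and hedgehog niche genes 1 rose (6.67%) and 6 fell (40%). Rspo3, which amplifies Wnt signalling for crypt stem cells, rose by 1.04 (SE 0.12, adjusted p = 0.000736), at 9.24, 9.42 and 9.60 in KO4, KO10 and KO15 with LPS against 8.47, 8.07 and 8.61 untreated. Wnt7b, a Wnt ligand, stood at 4.85, 4.67 and 4.59 with LPS, where no array detected it, against 5.90, 5.70 and 5.37 untreated, at least 1.67-fold lower (adjusted p = 0.000409). The hedgehog effector Gli2 fell by 0.68 and the Wnt modulator Dkk3 by 0.72 on the log2 scale. Of 25 tested TGF-beta and BMP genes 6 rose (24%) and 6 fell (24%). Tgfb3 stood at 8.28, 8.0 and 8.52 in KO4, KO10 and KO15 with LPS, against 10.23, 9.97 and 10.04 untreated (change -1.81, SE 0.14, adjusted p = 7.08e-05). The co-receptor gene Tgfbr3 rose by 1.48 (SE 0.13, adjusted p = 0.000156), and its 2 probes changed by 0.64 to 1.48.

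Cell cycle and housekeeping genes were followed last. Of 37 tested cell cycle genes 2 rose (5.41%), Pcna (0.87, SE 0.10, adjusted p = 0.000694) and Cdc6 (0.64), and 2 fell (5.41%), Ccnd1 (-0.46) and Tk1 (-0.45). The proliferation markers Top2a (-0.17, adjusted p = 0.35) and Birc5 (-0.16, adjusted p = 0.34) did not pass. Of 26 respiratory chain genes 3 rose and 0 fell, and of 20 cholesterol synthesis genes 2 rose and 1 fell, shares close to the background. Among 26 genes of endoplasmic reticulum stress 6 rose (23.1%), including the chaperone Hspa5 (0.72, SE 0.12, adjusted p = 0.00461). The 2 that fell (7.69%) were Ddit3 (-0.63) and Trib3 (-0.65). Of 21 immediate early genes 4 rose (19%) and 5 fell (23.8%), with Ier3, an NF-kB target, at 1.37 and the growth factor-induced Egr3 at -1.42.

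Lines were compared next. Among the 949 genes called higher, the change was largest in KO4 for 295, in KO10 for 447 (47.1%) and in KO15 for 207. Among the 973 called lower it was largest in size in KO4 for 220, in KO10 for 533 (54.8%) and in KO15 for 220. KO10 had the largest change in 38.2% of all genes. The median change of called risers was 0.65, 0.68 and 0.64 in KO4, KO10 and KO15, and of called fallers -0.48, -0.58 and -0.49. Across 11060 genes, the changes of KO4 and KO10 correlated at r = 0.79, of KO4 and KO15 at 0.77 and of KO10 and KO15 at 0.82. All pairs share the 2 slides, and genes are not independent replicates.

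Of 14 tested leukocyte genes, 12 were highest in KO10, then KO15 and then KO4 with LPS, and 12 were so untreated. Cd3e and Tyrobp broke this order with LPS, and Cd3e and Aif1 untreated. Lyz2, lysozyme of macrophages, stood at 8.42, 10.32 and 9.28 in KO4, KO10 and KO15 with LPS, against 9.10, 11.32 and 10.19 untreated. Its order was the same with and without LPS. Over the 14 tested leukocyte genes, the summed linear level was 2682 to 9442 with LPS and 3392 to 13612 untreated, in the order KO10, KO15, KO4 in both. Of the 14 genes 4 rose and 6 fell with LPS. Adgre1, the macrophage marker F4/80, rose by 1.96 (SE 0.25, adjusted p = 0.000942), and Cd52 by 1.41. Adgre1 was detected on 1 of 3 untreated null arrays, so its rise starts near background. The 2 probes of each gene changed by 1.28 to 1.96 for Adgre1 and by 0.70 to 1.41 for Cd52. C1qb fell by 1.75 on the log2 scale (SE 0.11, adjusted p = 3.34e-05), Lyz2 by 0.87 and Laptm5 by 0.80. The 3 Lyz2 probes changed by -0.87 to -0.08, and the brightest is given. Probes for the leukocyte genes Ptprc, Itgam, Itgax, Cx3cr1 and Ms4a1 did not pass the detection filter.

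**Figure D4:**
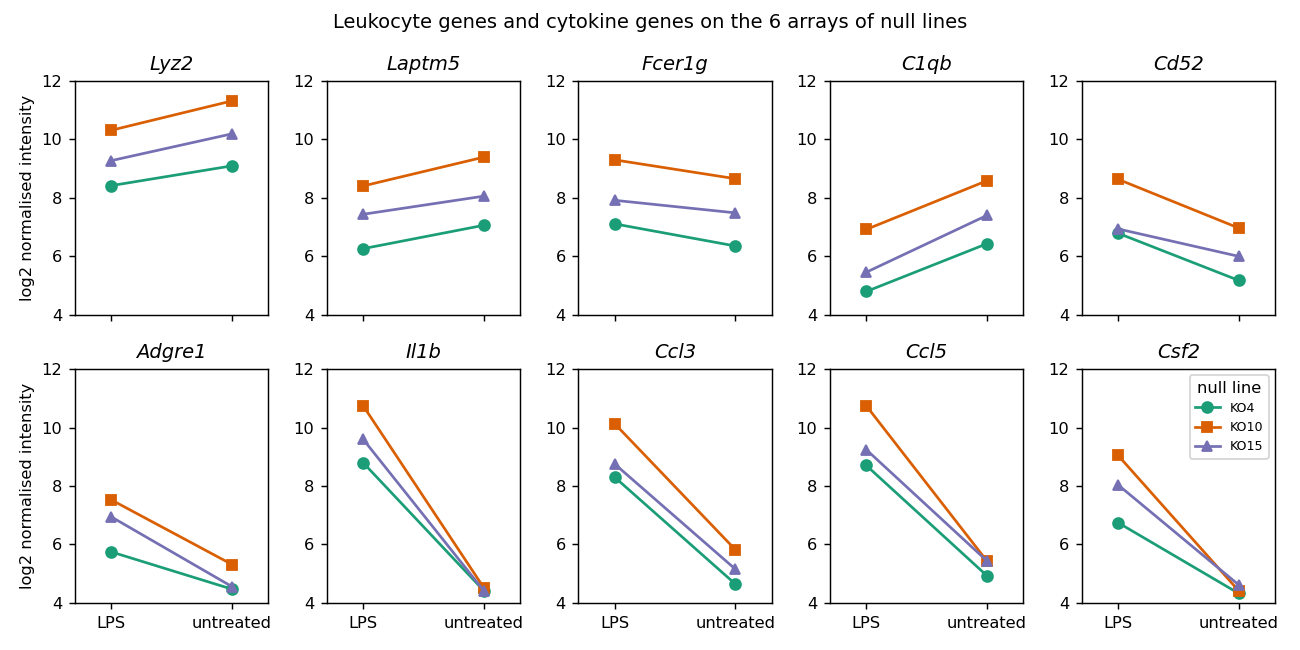
Log2 normalised intensity of 6 leukocyte genes (Lyz2, Laptm5, Fcer1g, C1qb, Cd52, Adgre1) and 4 induced cytokine genes (Il1b, Ccl3, Ccl5, Csf2) on the 6 arrays of null lines, LPS on the left and untreated on the right, with the 2 arrays of a line joined. With LPS, KO10 was highest, KO15 in the middle and KO4 lowest in every panel.

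The same order held for LPS levels of many induced genes. KO10 stood above KO15 and KO15 above KO4 with LPS in 157 of the 230 genes that rose at least 2-fold (68.3%), in 398 of all 949 called risers (41.9%), in 58 of 973 called fallers (5.96%) and in 18.2% of all genes. Untreated, the order held in 31.7% of the genes that rose at least 2-fold and in 14.8% of all genes. Il1b, Ccl3, Ccl5, Csf2 and Acod1 followed it, as did 12 of 14 leukocyte genes. The part of leukocytes in these changes was not tested. Markers of other cells were few: of epithelial markers 7 of 16 were tested, with 0 higher and 2 lower (Krt8 and Krt18), of endothelial 5 of 12, with 0 higher and 1 lower, and of glial and neuronal 3 of 11, with 1 higher.

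The response of null lines was set beside that of wild-type lines, which share no array with it but share the 2 slides. Both sets of calls come from the same fit, with a common spread per gene, so they are not independent tests. In wild-type lines 2992 genes were called (27.1%), 1348 higher and 1644 lower. Of the 949 genes that rose in null lines, 779 were called higher and 2 lower in wild type, and of the 973 that fell, 751 were called lower and 0 higher. Over all genes the 2 changes correlated at r = 0.89, a description across genes that are not independent. The difference between the changes was tested directly: 0 of 11060 genes passed (0%), while 624 had an unadjusted p under 0.05 (5.64%). With limma's random line block 1 gene passed, and with the mean of each gene's probes 2 did.

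The 6 genes of smallest p for this difference were Gm4951, Cep85, Aoc3, Wnt7b, Csn3 and Rprd2. Gm4951, an interferon-inducible GTPase gene, stood at 4.46, 4.57 and 4.51 in KO4, KO10 and KO15 with LPS, against 4.49, 4.59 and 4.34 untreated, and no null array detected it. In wild-type lines it stood at 6.87, 6.13 and 7.06 in WT5, WT7 and WT13 with LPS and was not detected untreated. The difference had an adjusted p of 0.0609, which passed in 4 of 14 alternatives and was 0.736 without background correction, and no size is given because 3 of the 4 groups were at background. Wnt7b was detected in untreated null lines and in no other group, and its difference did not pass (adjusted p = 0.616). The change of Igfbp5, 0.63 in null lines against 0.04 in wild-type lines, differed by 0.60 (SE 0.15, unadjusted p = 0.00402, adjusted p = 0.797).

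The change of interferon-stimulated genes was smaller in null than in wild-type lines in 39 of 42 cases, where 47.5% of all genes had a smaller change in null lines. The median difference of changes was -0.43 over the list and 0.01 over all genes, and 19 of 42 had an unadjusted p under 0.05 against 5.64% of all genes, but 0 passed adjusted over all genes. Usp18 had a change of 2.62 in null and 4.38 in wild-type lines (difference -1.76, SE 0.38, adjusted p = 0.797), and Isg15 of 2.94 and 4.12. The list's genes lay, in the median, 0.30 above wild type in untreated null lines and 0.15 below it with LPS. Untreated, the median level of the list was 6.92, 7.27 and 6.22 in KO4, KO10 and KO15, against 6.93, 6.65 and 6.41 in WT5, WT7 and WT13. The groups overlapped. Interferon-inducible GTPases showed the same count direction, with 9 of 11 smaller in null lines and a median difference of -0.32. For NF-kB genes the median difference was -0.11, with 0 of 17 at an unadjusted p under 0.05. The null change was also smaller in 8 of 9 CXC genes (median difference -0.31, 1 at an unadjusted p under 0.05) and 11 of 15 CC and CX3C genes (-0.29, 5).

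**Figure D5:**
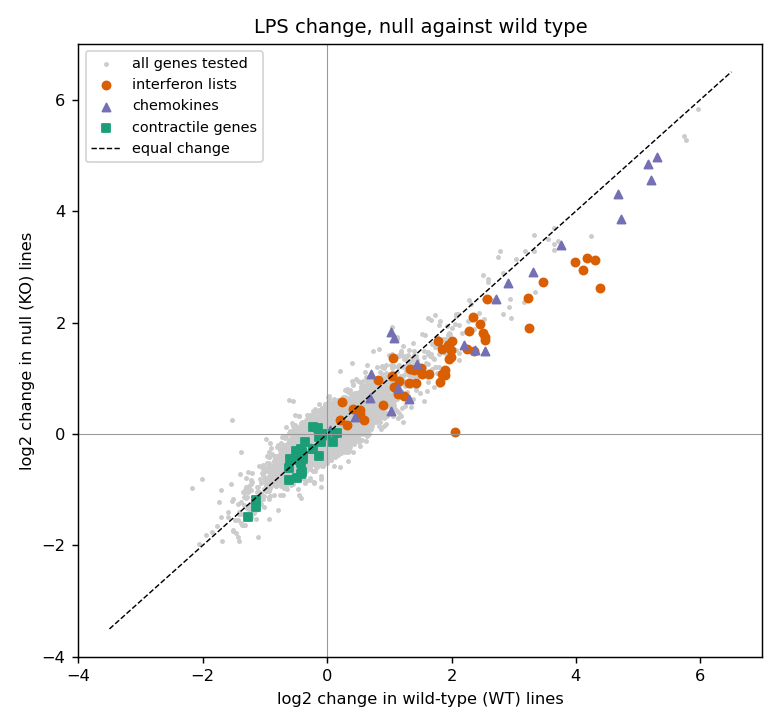
Mean log2 change with LPS in null lines (y axis) against that in wild-type lines (x axis) for 11060 genes, with genes of the 2 interferon lists (circles), chemokines (triangles) and contractile genes (squares) marked. Most circles lie below the dashed line of equal change, and the circle near 2 on the x axis and 0 on the y axis is Gm4951, which was detected only in wild-type lines with LPS. No gene's difference passed after adjustment.

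Contractile genes fell in both genotypes, with a median change of -0.40 in null and -0.41 in wild-type lines and 1 of 27 differences at an unadjusted p under 0.05. Myh11 changed by -1.50 in null and by -1.28 in wild-type lines (difference -0.22, SE 0.17, adjusted p = 0.8). Among chemokines, Ccl3 changed by 3.86 in null and by 4.72 in wild-type lines, a difference of -0.86 (SE 0.21, adjusted p = 0.797). The largest riser Lcn2 changed by 5.82 in null and by 5.97 in wild-type lines, a difference of -0.14 with an SE of 0.53. Saa3 differed by -0.38 with an SE of 0.60.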

How the data were processed

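Total RNA of 12 cultures was labelled and hybridised to Illumina bead arrays, and the authors deposited non-normalized bead intensity and a detection p-value per probe, per the file headers. The authors used BeadStudio, per the submitters' processing notes (version not given). A second deposited table of processed intensity served as an alternative. From the non-normalized values, limma 3.58.1 in R 4.3.3 gave background-corrected, quantile-normalised log2 intensities (neqc, offset 16). Probes with a detection p-value under 0.05 on at least 3 of 12 arrays were kept (21124 of 45281), and the brightest probe stood for each of 11060 genes. Other probes of a gene could change by less, and their range is given for some genes only. The fit held line as a block and an LPS effect per genotype over all 12 arrays, with Benjamini-Hochberg adjustment over all genes and a threshold of 0.05. The line number pairs the samples, since each line is labelled both as treated and as untreated, and deviations of a line's 2 arrays correlated at 0.44 to 0.52 in null and 0.14 to 0.20 in wild-type lines. The fit was tested on simulated data.

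Named were the 12 largest risers and fallers with all lines moving one way and groups apart, up to 4 called members per list, a fixed set (Tlr4, Cd14, Ly96, Myd88, Acta2, Myh11, Vim, Igfbp5), the 6 most variable called genes and the 6 of smallest p for the difference between genotypes. Further examples were chosen after their values were seen. Members and lists were chosen with earlier results of these data known. Their number limits the precision of these arrays. Alternatives covered the block, background, normalisation, filter, probe choice, variance trend and each line left out.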

Additional observations from a re-analysis of the deposited data

Results flagged for a closer look

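Among the 129 named genes, 3 had every null line moving one way with LPS and every wild-type line the other way. Genes outside the named set were not searched for this. Cep85 and Rprd2 were named for the small p of this same difference, a choice that favours genes whose changes differ between genotypes. Their opposite directions are therefore not separate support. Each difference was also tested across all genes with limma. Lama1, a laminin chain, changed by 0.49, 0.96 and 0.31 in KO4, KO10 and KO15, against -0.77, -0.07 and -0.82 in WT5, WT7 and WT13. The difference was 1.14 (adjusted p = 0.797). With LPS, Lama1 was detected on 1 of 3 wild-type arrays, at levels of 4.67, 5.54 and 4.63 in WT5, WT7 and WT13. The wild-type falls and the size of the difference therefore run into background. Cep85, a centrosome gene, changed by 0.64, 0.62 and 0.55 in the null lines, against -0.50, -0.82 and -0.51 in the wild-type lines, a difference of 1.21 (adjusted p = 0.0609). Rprd2 changed by -0.58, -0.82 and -0.40 in the null lines, against 0.14, 0.25 and 0.25 in the wild-type lines, a difference of -0.82 (adjusted p = 0.616). None of the 3 passed after adjustment.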

How the results depend on the processing

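The count of genes changed by LPS in null lines, 1922, was 807 to 2797 when 1 line was left out, lowest without KO10 and highest without WT13. It was 1622 with no replicate block, 2136 with a random replicate block, 2671 in null arrays alone with the replicate block and 1614 without it. No filter on dim probes gave 1765, an intensity trend 2296, and no background correction and the authors' processed values 2256 each. Scaling to the 75th percentile gave 2041 and a share of higher calls of 41.1%, against 49.4%. The count of differences between genotypes, 0, was 0 with no replicate block, 1 with the random replicate block, 2 with the mean of a gene's probes, 1 with the intensity trend and 0 to 1 when 1 line was left out. Of 124 named called genes 94 were called under all 17 settings. Calls most often lost were those of Lama1 (9 settings), Ndufb5 (8), Mvd and Tk1 (7 each). Acta2 turned to -0.23 with scaling to the 75th percentile, -0.36 with the mean of its probes, and lay between -0.0096 (without KO4) and 0.016 (without KO10) when 1 null line was left out. Csn3 turned to 0.12 with the mean of its probes and Gm4951, not detected on null arrays, lay between -0.023 (without KO15) and 0.078 (without KO4). The cause was not tested. The slide as a block could not be fitted, because each slide holds 1 treatment. Probes near background give bounds only, and these hold on the background-corrected scale. The smallest change over the alternatives was 1.01 for Acod1, -0.28 for Wnt7b and -0.25 for Tbxa2r on the log2 scale. These are smaller in size than the bounds given for them.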

Other observations

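A group of genes went from undetected to detected with LPS in null lines. Of called risers 56 were detected on all 3 LPS arrays and on 0 untreated arrays, with a median lower bound of 1.5-fold. Sprr2e, a cornified envelope gene of epithelia, stood at 6.77, 8.51 and 7.91 in KO4, KO10 and KO15 with LPS and was at least 7.16-fold higher (adjusted p = 8.95e-05). Il13ra2, a decoy receptor for IL-13, was at least 6.85-fold higher, and the stefin genes Cstdc4 and Csta2 at least 6.71-fold and 3.76-fold higher. Il1r2, the decoy receptor for IL-1, was at least 3.73-fold higher, with 6.79, 7.07 and 6.52 in the 3 lines with LPS. The reverse, detection on 3 untreated and 0 LPS arrays, held for 29 called fallers, with a median bound of 1.36-fold. These genes were chosen after their values were seen.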
